A study of Mus musculus with 12 samples.

Results

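Has1, Has2, Has3 and Cd44 make and bind hyaluronan, the long unsulfated sugar chain that fills the space between keratinocytes. Each of the 4 genes was read by 1 probe set, found by matching the RefSeq accession in the probe set name to the gene, so 4 of the 909 genes named in the table, and 4 of its 1246 probe sets, are described. Has1 was read by NM_008215.1_psr1_at, Has2 by NM_008216.3_psr1_at, Has3 by NM_008217.3_psr1_at and Cd44 by NM_001039151.1_psr1_at. RNA from mouse skin was hybridised to 12 single-colour arrays. There were 4 non-wounded samples, and wounded skin gave 1 sample at 0 h, 2 samples at 30 min, 4 samples at 2 h and a single sample at 4 h. All sample titles begin with B6, and the labels give no other strain, genotype, age or treatment, nor any statement on whether different mice were used for the replicates. The labels name dendritic epidermal T cells (DETC), whereas the series text plans RNA from whole epidermis. Values are log2 intensities summarised by RMA, a method that corrects, normalises and combines the probes of a probe set, and a step of 1 is a doubling.

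Hyaluronan is spun out through the plasma membrane by 3 synthases, Has1, Has2 and Has3, which join UDP-glucuronic acid and UDP-N-acetylglucosamine in alternation. Has1 and Has2 are known for longer chains and Has3 for shorter ones, and epidermal Has2 and Has3 are known to respond to ligands of the EGF receptor. Cd44 is the main cell surface receptor for hyaluronan on keratinocytes, and on leukocytes it takes part in adhesion and in activation. Several Cd44 splice forms exist, and 1 probe set does not tell them apart.

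The RefSeq promoter table matched 2 of the 4 genes, Has1 and Cd44; Has2 and Has3 had no entry. The 250 bases before the annotated start are shown for these because they are the stretches that precede the measured transcripts. They lie at chr17:17855189-17855438 for Has1 and at chr2:102901666-102901915 for Cd44, both on the minus strand of GRCm38.p6, written 5′ to 3′ in lower case, with capitals for a match to any of 4 motifs searched on both strands.
Has1: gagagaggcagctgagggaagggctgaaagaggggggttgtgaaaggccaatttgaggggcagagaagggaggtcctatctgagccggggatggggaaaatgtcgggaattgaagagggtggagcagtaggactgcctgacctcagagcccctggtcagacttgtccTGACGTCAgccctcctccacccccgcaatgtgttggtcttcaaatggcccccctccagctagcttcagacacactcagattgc
Cd44: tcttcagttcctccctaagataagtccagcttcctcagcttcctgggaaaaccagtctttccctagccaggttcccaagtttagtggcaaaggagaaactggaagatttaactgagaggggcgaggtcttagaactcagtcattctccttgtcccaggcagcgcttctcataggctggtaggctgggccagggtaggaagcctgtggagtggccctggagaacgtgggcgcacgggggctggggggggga
The motifs were the AP-1 site TGANTCA, the cAMP response element TGACGTCA, the GC box GGGCGG and the TATA element TATAAA. The capitals in Has1 are 1 cAMP response element, from base -83 to base -76, which 1.55% of 32851 promoter windows of that length hold on either strand. The Cd44 window held no match to any of the 4, and neither window held the AP-1 letters, present in 6.75% of windows, the GC box, present in 32.7%, or the TATA letters, present in 12.4%. A match is a run of letters and not a measured site.

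Samples carry a replicate number from 1 to 4. The 5 arrays with number 1, which cover every group once, differed in kind from the 7 with a higher number. Their SD over all probe sets was 1.55 to 1.85 against 2.19 to 2.30. Within number 1 it was 1.81 in the non-wounded and 1.85 in the 0 h sample, and 1.55 to 1.59 from 30 min on. All of the 0 h and 4 h groups is of this kind, so they are set beside the non-wounded sample numbered 1. That reference differs in SD from the 4 h sample, so time and array cannot be told apart there either. Each gene is therefore given sample by sample and by kind. Of the keratinocyte markers 5 of 10 were measured, with Lgals7, a galectin of stratified epithelia, at 11.83 to 12.36 in non-wounded samples. Of the epidermal T cell markers 4 of 9 were measured, with the cytokine receptor subunit Il2rb brightest at 4.89 to 5.53. Cd3 genes and Thy1, which define T cells, and the keratins Krt5 and Krt14 were not among the named probe sets. Levels of different probe sets cannot be set against each other as amounts of RNA, so the labelled cell type could not be checked here. Where probe sets are called bright or dim, or are summed, this describes array intensity only. In bulk RNA, fewer cells of a type and less RNA per cell cannot be told apart.

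**Figure D1:**
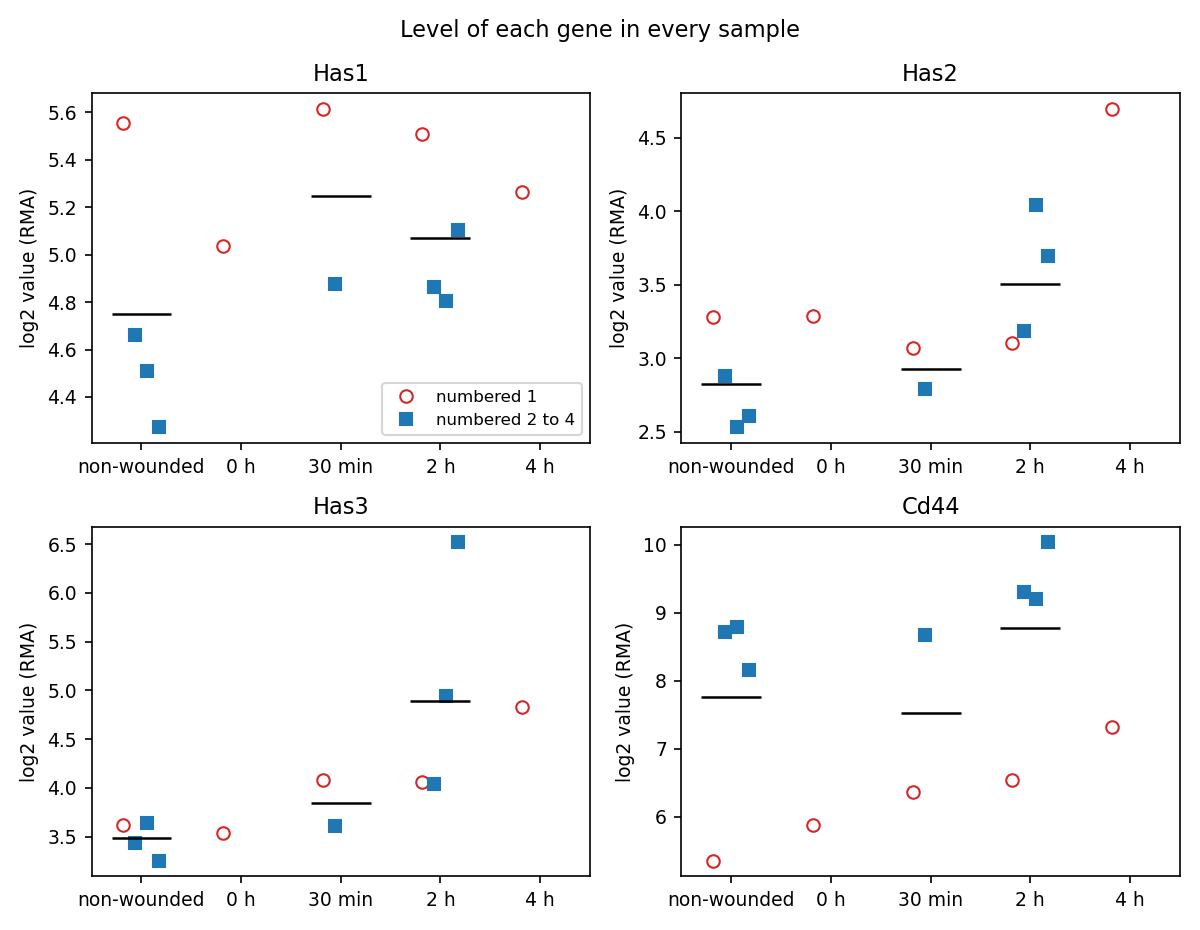
Log2 value of Has1, Has2, Has3 and Cd44 (vertical axes) in each of 12 samples by group (horizontal axes); open red circles are samples numbered 1, blue squares those numbered 2 to 4, and black lines are group means where a group has over 1 sample. All 4 Has3 values at 2 h lie above all 4 non-wounded values, and the Cd44 values of samples numbered 1 lie below those of the others.

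The first comparison asked whether these genes differed 2 h after wounding. Every one of the 4 had a higher mean at 2 h, from 1.25-fold for Has1 to 2.64-fold for Has3, and none passed the limma test with or without the replicate number as a block. Over all probe sets, 0.241% passed without the block and 1.36% with it. Among the 3 samples of each group numbered 2 to 4, all 2 h values lay above all non-wounded values for Has1, Has2, Has3 and Cd44, a pattern that 14.7% of all probe sets showed.

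Has3, the synthase with the largest difference, read 3.62, 3.44, 3.64 and 3.26 in the non-wounded samples numbered 1 to 4. At 2 h it read 4.06, 4.04, 4.94 and 6.52 in the same order. The groups did not overlap, as was true of 2.01% of all probe sets in this direction, and the 2 h values spread far more widely (SD 1.16) than the non-wounded ones (SD 0.18). The fold change was 2.64 (log2 1.40 ± 0.49 SE, 95% interval 0.31 to 2.49), with a limma adjusted p of 0.707 without the block and 0.170 with it. An exact two-sided permutation test of Has3 alone gave p = 0.0286, the smallest that 4 against 4 samples allow, and 0.603 after adjustment over all 1246 probe sets. Without the 2 h sample numbered 4 the log2 difference was 0.86 (limma adjusted p = 0.834). That sample also had the highest Cd44 value. Its summed level of epidermal T cell markers was the highest too, 6.35 against 5.59 to 5.81 in the other 2 h samples. Il2rb, the brightest of these markers, read 5.96 there against 4.90 to 5.15. Il2ra, the next brightest, read 3.09 against 2.88 to 3.37. The part of Cd44 or of these markers in the Has3 value was not tested.

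Has2, the synthase known to be essential in mouse embryos, read 3.28, 2.88, 2.53 and 2.61 in the non-wounded samples numbered 1 to 4. At 2 h it read 3.10, 3.18, 4.04 and 3.69. The samples numbered 3 and 4 lay above every non-wounded value and the other two did not, so the groups overlapped. The log2 difference was 0.68 ± 0.26 SE (limma adjusted p = 0.789, or 0.284 with the block), and the exact permutation p was 0.0857. In the samples numbered 2 to 4 alone it was 0.97 ± 0.22 SE (limma adjusted p = 0.0835), where 3.05% of all probe sets passed. Has2 lay in the dim part of the array, at the 13th to 25th percentile of each non-wounded sample, and the 2 h sample numbered 3 reached 48.9.

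Cd44 read 5.36 in the non-wounded sample numbered 1 and 8.71, 8.79 and 8.16 in those numbered 2 to 4. At 2 h it read 6.54, 9.30, 9.21 and 10.04. The gap between the kinds of sample was larger than the difference at 2 h, so the groups overlapped when pooled. Among the samples numbered 2 to 4 they did not, as for 14.7% of all probe sets. Number 1 has a single array in each group, so overlap cannot be judged there. The difference within same-numbered pairs was 1.18, 0.59, 0.41 and 1.88, higher in 4 of 4 pairs, as in 13.4% of all probe sets. The mean was log2 1.02 with an SE of 0.96 without the block and 0.25 with it (limma adjusted p = 0.998 and 0.122). With a single term for the samples numbered 1 the adjusted p was 0.0647.

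Has1 read 5.55, 4.66, 4.51 and 4.27 in the non-wounded samples numbered 1 to 4 and 5.51, 4.86, 4.80 and 5.10 at 2 h. Its values were higher in the samples numbered 1, opposite to Cd44, and the groups overlapped. The log2 difference was 0.32 ± 0.31 SE (limma adjusted p = 0.998, or 0.457 with the block). It was 0.44 ± 0.13 SE in the samples numbered 2 to 4 alone (adjusted p = 0.157) and -0.05 between the pair numbered 1, a difference that turned to 0.23 after quantile normalization and 0.10 on a common median and SD. With array weights, which were lowest (0.10 to 0.17) for the non-wounded and 2 h samples numbered 1 and both 30 min samples, Has1 and Has2 passed (log2 0.40 and 0.96, adjusted p = 0.0493 and 0.0122), as did 10.4% of all probe sets.

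**Figure D2:**
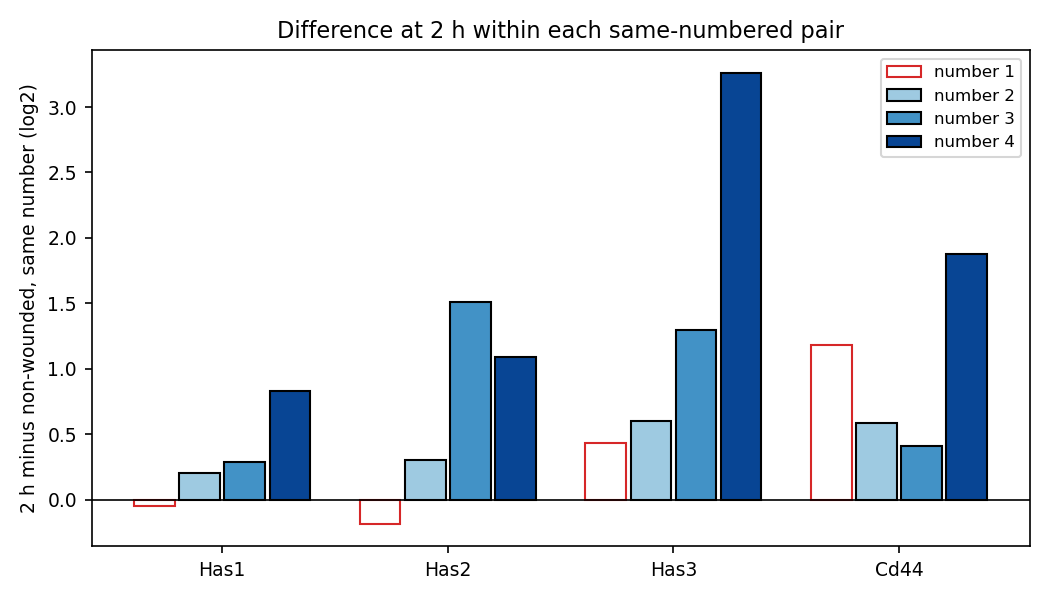
Difference in log2 value between the 2 h and the non-wounded sample of the same number (vertical axis) for each gene; the 4 bars of a gene are numbers 1 to 4, with number 1 outlined in red, and bars start at 0. Has3 and Cd44 are above 0 in 4 of 4 pairs, Has1 and Has2 in 3 of 4; the Has1 pair numbered 1 (-0.05) is above 0 after quantile normalization (0.23) or scaling (0.10).

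The 2 kinds of sample were then compared in how they changed at 2 h. The change in the samples numbered 1 is 1 array against 1 array, so it has no measured spread. The SE and p below rest on the spread among the samples numbered 2 to 4, which are of the other kind. For Has2 the change was -0.18 between the samples numbered 1 and 0.97 among those numbered 2 to 4, a difference of -1.15 ± 0.44 SE (limma interaction, adjusted p = 0.149). For Has3 it was 0.43 against 1.72 (difference -1.29 ± 1.14 SE, adjusted p = 0.483), and for Has1 -0.05, whose sign depends on the normalization, against 0.44 (difference -0.49 ± 0.26 SE, adjusted p = 0.272). For Cd44 it was 1.18 against 0.96 (difference 0.22 ± 0.53 SE, adjusted p = 0.802). None of the 4 passed, while 8.83% of all probe sets did.

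**Figure D3:**
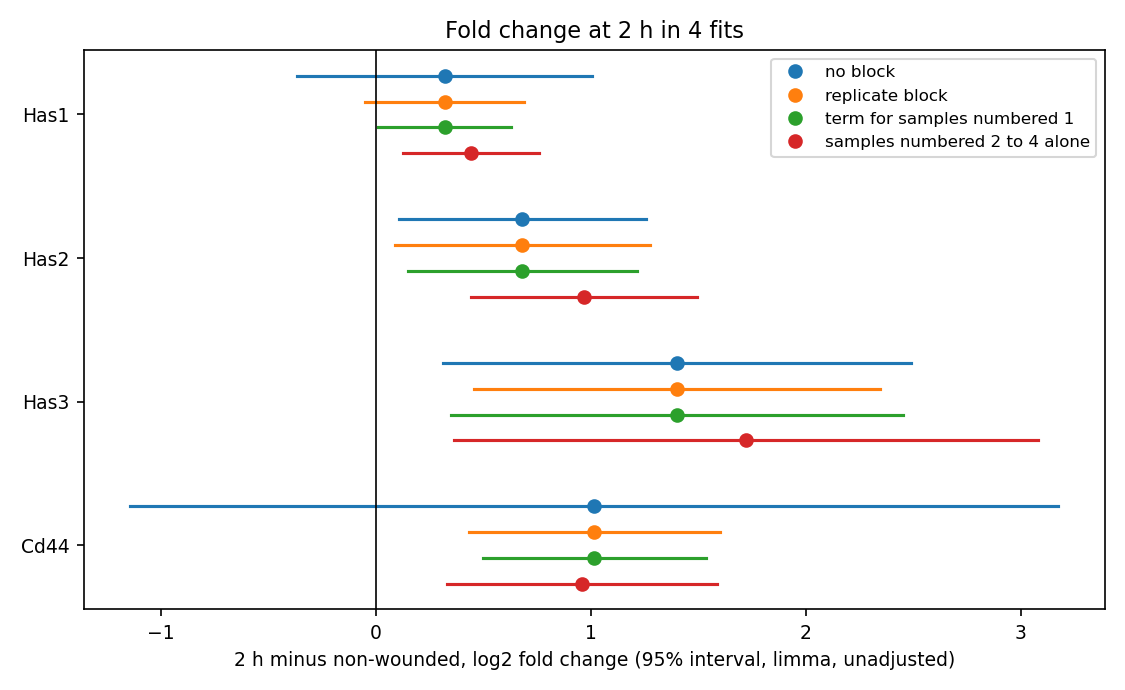
Log2 fold change at 2 h against non-wounded (horizontal axis) for each gene in 4 limma fits, shown by colour; points are estimates and lines are 95% intervals that are not adjusted for the number of probe sets. The Cd44 interval runs from -1.14 to 3.17 without a block and from 0.43 to 1.60 with the replicate block.

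At 30 min the 2 samples of that time, 1 of each kind, gave no difference beyond the spread for any of the 4 genes, and 0% of all probe sets passed the limma test with or without the block. Has1 read 5.61 and 4.88 in the samples numbered 1 and 2, a log2 difference of 0.50 ± 0.38 SE from non-wounded (limma adjusted p = 0.737). Has3 read 4.08 and 3.61 (0.36 ± 0.60 SE, adjusted p = 0.842). Those 2 genes were higher than their same-numbered non-wounded sample in both, by 0.06 and 0.22 for Has1 and by 0.46 and 0.18 for Has3. Has2 read 3.07 and 2.79 (0.10 ± 0.32 SE, limma adjusted p = 0.911), lower than the same-numbered sample in both, and its estimate was -0.20 when samples were brought to a common median and SD. At 30 min the median over the whole array was 0.04 as deposited and -0.09 on that common scale. Cd44 read 6.37 and 8.67, which was 1.01 above the same-numbered non-wounded sample for number 1, a step of 1 or more that 5.22% of all probe sets showed there, and -0.04 from it for number 2. Its estimate was -0.23 ± 1.18 SE without the block and 0.55 ± 0.34 SE with it (adjusted p = 0.947 and 0.505), so its direction was not settled.

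Set directly against 30 min, the 2 h means were higher for Has2, Has3 and Cd44, and none passed. The log2 difference was 0.58 ± 0.32 SE for Has2, 1.04 ± 0.60 SE for Has3 and 1.25 ± 1.18 SE for Cd44, each with a limma adjusted p of 0.980. For Has1 it was -0.18 ± 0.38 SE, and 0.06 with the block. In this comparison 0% of all probe sets passed in either fit.

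The 0 h and 4 h samples had no replicate and are described without a test, next to the non-wounded sample numbered 1. At 0 h Has2 and Has3 were within 0.10 of that sample (3.29 and 3.53, differences of 0.0028 and -0.09), Has1 was lower (5.03, difference -0.52) and Cd44 was higher (5.88, difference 0.52). At 4 h Has2 read 4.70, the highest of its 12 values, 1.41 above the non-wounded sample numbered 1 (2.66-fold). Has3 read 4.83 at 4 h, 1.21 above it (2.31-fold). Both also lay above all 4 non-wounded samples and over 1 above their mean, as 6.18% of all probe sets did. Cd44 read 7.32 at 4 h, 1.96 above the non-wounded sample numbered 1 (3.90-fold), and below the 3 non-wounded samples of the other kind as deposited. After quantile normalization it was 7.08-fold that sample and above all 4 non-wounded samples, and its difference from their mean turned from -0.44 to 0.98 (0.57 on a common median and SD). Of the 1246 probe sets, 3.29% were higher by 1 or more on the log2 scale in the 4 h sample than in that reference, and by size of the difference Cd44 was number 6, Has2 number 15 and Has3 number 25. Has1 at 4 h read 5.26, 0.29 below the reference (-0.29).

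Along the 5 samples numbered 1, Cd44 was higher at every step, from 5.36 through 5.88, 6.37 and 6.54 to 7.32, as were 1.04% of all probe sets, and it kept that order after quantile normalization and on a common median and SD. The synthases had other orders. Has2 stayed between 3.07 and 3.29 up to 2 h and was at 4.70 at 4 h. Has3 was at 3.62 and 3.53 in the first samples, 4.08 and 4.06 at 30 min and 2 h and 4.83 at 4 h. Has1 moved between 5.03 and 5.61 with no step of 1. With 1 sample a time, no spread is known for these steps, and the neighbouring Has3 values at 30 min and 2 h differ by less than the non-wounded SD of 0.18. The SD over all probe sets was 1.81 and 1.85 in the non-wounded and 0 h samples and 1.55 to 1.59 later. Time and array cannot be told apart along this course.

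**Figure D4:**
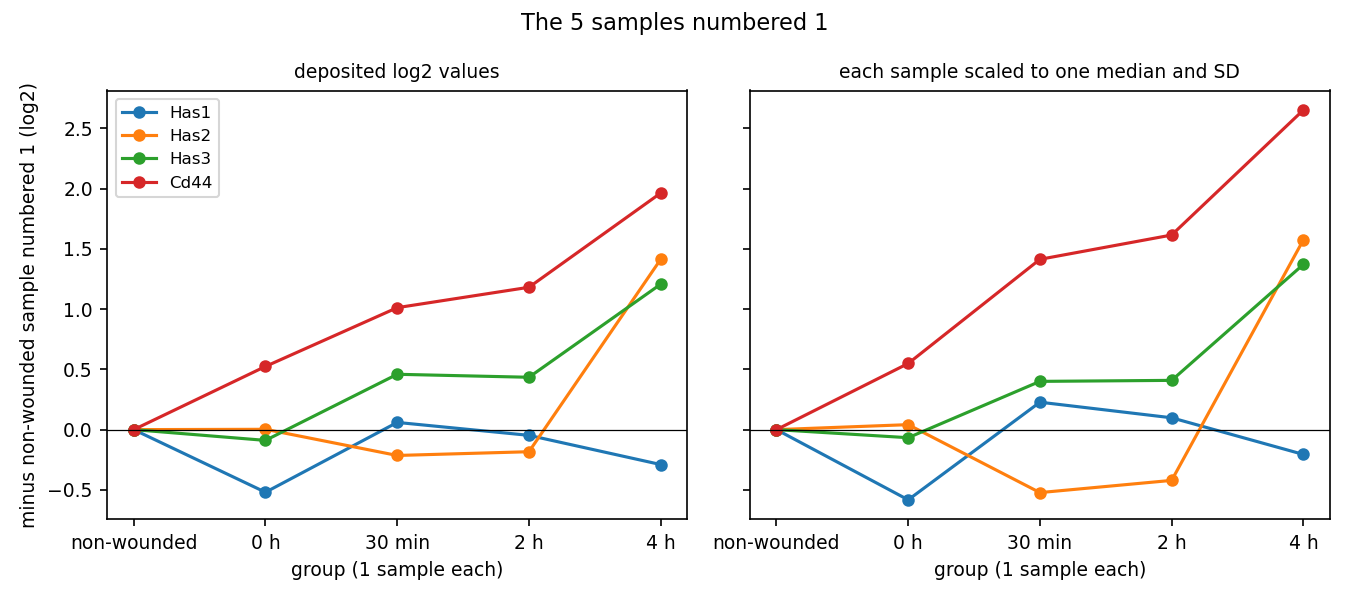
Difference in log2 value from the non-wounded sample numbered 1 (vertical axis) in the other samples numbered 1 (horizontal axis, 1 sample each), for the deposited values on the left and for samples brought to a common median and SD on the right. Cd44 is highest at 4 h, 1.96 on the left and 2.65 on the right, and Has2 departs from 0 by over 1 only at 4 h.

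Over the groups as a whole, the order of the mean levels of Has3 was non-wounded (3.49), 0 h (3.53), 30 min (3.85), 4 h (4.83) and 2 h (4.89). The first and the last pair of neighbours differed by less than the SD of the group (0.18 in non-wounded, 1.16 at 2 h). Among the samples numbered 1 Has3 read 4.06 at 2 h and 4.83 at 4 h. The 0 h and 4 h groups hold only samples numbered 1, so time and kind of sample are mixed in the orders given here. For Has2 the order was non-wounded (2.82), 30 min (2.93), 0 h (3.29), 2 h (3.51) and 4 h (4.70). The non-wounded, 30 min and 0 h values ranged over a little more than the non-wounded SD of 0.34. The 0 h value differed by 0.0028 from the non-wounded sample numbered 1. For Has1 the order was non-wounded (4.75), 0 h (5.03), 2 h (5.07), 30 min (5.25) and 4 h (5.26), a span smaller than the non-wounded SD of 0.56. Against the non-wounded sample numbered 1, Has1 was lower at 0 h and 4 h (-0.52 and -0.29), so this order mixes time and kind of sample. For Cd44 the order was 0 h (5.88), 4 h (7.32), 30 min (7.52), non-wounded (7.76) and 2 h (8.77), which is not the order of the times. The 0 h and 4 h samples are of the kind in which Cd44 read lower, so this order too mixes time and kind of sample.

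Genes on the array with the most similar course to each of the 4 were taken by Pearson's r over the 7 samples numbered 2 to 4, which share 3 non-wounded, 1 30 min and 3 2 h samples, and are given as a description. For Has2 they were the inflammatory cytokine Il1b (r = 0.974, or 0.878 over all 12 samples), the neutrophil chemokine Cxcl1 (0.962 and 0.806), the lectin Siglecg (0.949 and 0.388) and the chemokine Ccl20 (0.945 and 0.738). For Has3 they were the adhesion receptor Cd2 (0.962 and 0.780), the sialyltransferase St3gal1 (0.950 and 0.807), the cytokine Il6 (0.940 and 0.879) and the cytokine receptor subunit Csf2rb (0.935 and 0.662). For Cd44 they were Cd2 (0.981 and 0.555), the receptor Il21r (0.959 and -0.764), the growth factor Bmp2 (0.957 and 0.939) and Clec3b (0.954 and -0.681). For Has1 they were Gdf3 (0.992 and 0.873), Hes7 (0.977 and 0.904), Mgat5 (0.973 and 0.913) and Gfra3 (0.973 and 0.842). The r over all 12 samples also holds the gap between the kinds of sample. Over the 5 numbered 1, in the same order, r was 0.747, 0.947, 0.0096 and 0.821 for Has2. It was 0.413, 0.773, 0.622 and 0.660 for Has3, and 0.581, 0.179, 0.470 and -0.067 for Cd44. For Has1 it was 0.558, -0.112, 0.367 and 0.514. The sign of Il21r and Clec3b turned once the samples numbered 1 were included. Among the members, Has3 and Cd44 had an r of 0.921 over the samples numbered 2 to 4 and 0.938 over the 5 numbered 1, and 0.434 over all 12. Has2 and Has3 had 0.803, 0.796 and 0.656. For the pairs with Has1 the samples differed by kind: Has1 and Cd44 had 0.862, -0.128 and -0.632, Has1 and Has2 0.664, -0.383 and 0.384, and Has1 and Has3 0.748, 0.049 and 0.257. Has2 and Cd44 had 0.748, 0.690 and -0.0083.

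The enzymes that supply the 2 sugar nucleotides were all measured, 7 of 7. Uap1, which makes UDP-N-acetylglucosamine, rose in the blocked fit and not in the unblocked one, and 1.36% of all probe sets passed with the block. None of the other 6 passed in either fit. Uap1 read 5.56, 6.39, 6.52 and 6.72 in non-wounded samples numbered 1 to 4 and 5.97, 7.82, 7.66 and 8.20 at 2 h. It was thus higher in 4 of 4 pairs, as were 13.4% of all probe sets. Its log2 difference was 1.11 ± 0.53 SE (limma adjusted p = 0.998, or 0.0448 with the block). Gfpt1 and Gfpt2, which start the hexosamine pathway, were at 0.22 ± 0.19 SE and 0.09 ± 0.13 SE. Of the 7, 4 had a higher mean and the median was 0.09, beside 0.03 for all probe sets, of which 54.5% were higher. On a common median and SD 3 of the 7 were higher (median -0.02), and 36.7% of all probe sets.

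Of the genes of hyaluronan breakdown 4 of 12 listed were measured, and none passed in either limma fit, with 1 higher and 3 lower at 2 h and a median of -0.16. The hyaluronidases Hyal2 and Hyal1 were at -0.20 ± 0.24 SE and 0.21 ± 0.33 SE, and the lysosomal glucuronidase Gusb at -0.56 ± 0.80 SE. Of other genes that bind hyaluronan 4 of 19 were measured, all proteoglycans of the aggrecan family, with 3 higher, 1 lower (2 and 2 on a common median and SD) and none called. Ncan, Vcan and Bcan were at 0.25 ± 0.21 SE, 0.12 ± 0.16 SE and 0.15 ± 0.39 SE. Of the partners of Cd44 8 of 16 were measured, with 6 higher, 2 lower on either scale and none called. Sele and Selp, adhesion receptors of activated endothelium of which Sele can bind glycosylated Cd44, were at 0.27 ± 0.22 SE and 0.16 ± 0.16 SE.

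Of genes listed as inducers of hyaluronan synthesis 13 of 17 were measured, namely growth factors, cytokines and the EGF receptor. They held 6 higher and 7 lower at 2 h, the EGF receptor among the lower. Their median was -0.09 (5 higher and 8 lower on a common median and SD). Hbegf, an EGF receptor ligand, rose in both limma fits (log2 3.18 ± 0.47 SE, adjusted p = 0.0376, or 0.00953 with the block). The unblocked call was lost after median centring (adjusted p = 0.124) and without any 1 of the non-wounded samples or of the 2 h samples numbered 2 to 4 (limma adjusted p up to 0.169). Hbegf read 4.53, 5.13, 4.56 and 4.22 in non-wounded samples numbered 1 to 4 and 6.39, 8.20, 7.80 and 8.77 at 2 h, with no overlap, as for 2.01% of all probe sets. Areg, a ligand of the same receptor, rose in the blocked fit and not in the unblocked one (1.39 ± 0.28 SE, limma adjusted p = 0.087, or 0.0297 with the block). Over all probe sets 0.241% passed without the block and 1.36% with it. Pdgfb, a platelet-derived growth factor chain, was at -0.96 ± 0.24 SE (limma adjusted p = 0.246) and Il1b at 1.26 ± 0.34 SE (0.354). Il1b read 4.58, 4.43, 5.86 and 4.99 at 2 h and 5.99 at 4 h. Il1b was named for its similarity to Has2 over the samples numbered 2 to 4. That both were highest at 2 h in the sample numbered 3 is therefore no separate result.

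**Figure D5:**
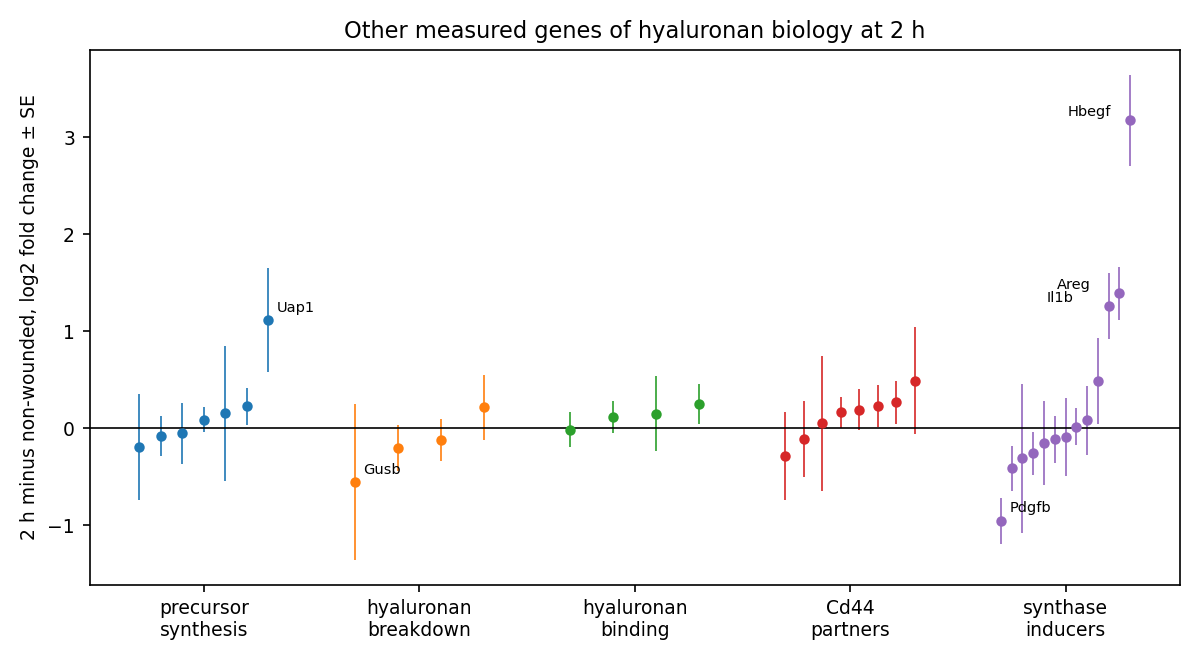
Log2 fold change at 2 h against non-wounded, without the block (vertical axis, points with ± SE), for the other measured genes of hyaluronan biology in 5 lists (horizontal axis, ordered by value within a list). Hbegf at 3.18, Areg at 1.39, Il1b at 1.26 and Uap1 at 1.11 are the highest, and most others lie near 0.

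Markers of other cells were measured beside the members. At 2 h 8 of 8 measured dermal fibroblast markers had a higher mean than in non-wounded samples (median 0.23), with a log2 summed level of 6.97 to 7.38 against 6.61 to 7.09, and none was called. On a common median and SD 6 of the 8 were higher, and 3 of 4 neutrophil, 4 of 4 endothelial, 2 of 5 keratinocyte and 1 of 4 T cell markers. Of the fibroblast markers, the brightest, Cxcl12, read 5.49, 4.64, 4.69 and 4.70 in non-wounded samples numbered 1 to 4. At 2 h Cxcl12 read 5.36, 4.84, 4.75 and 4.67, lower for numbers 1 and 4. The matrix proteoglycan Dcn, next in brightness, read 4.38, 4.76, 4.65 and 4.32 in the non-wounded samples. At 2 h Dcn read 4.27, 5.29, 5.72 and 5.25. All 4 neutrophil markers had a higher mean (median 0.29, summed level 8.74 to 10.49 against 8.28 to 10.33). Il1r2 alone carried that sum (8.14 to 10.29 in non-wounded samples). Cxcr2, next in brightness, read 3.52, 4.72, 4.88 and 4.05 in non-wounded samples numbered 1 to 4. At 2 h Cxcr2 read 3.44, 4.71, 4.25 and 4.82, lower for numbers 1 to 3. All 4 endothelial markers also had a higher mean (median 0.18, 5.90 to 6.19 against 5.65 to 5.98). Of keratinocyte markers 1 of 5 was higher (11.92 to 13.14 against 12.39 to 13.17), of Langerhans cell markers 3 of 4 (9.97 to 11.47 against 10.36 to 11.34), of epidermal T cell markers 2 of 4 (5.59 to 6.35 against 5.64 to 6.05) and of monocyte and macrophage markers 3 of 5 (7.26 to 8.12 against 7.53 to 8.22). Among these lists the Langerhans cell lectin Cd207 was called, in the blocked fit and not in the unblocked one (0.91, limma adjusted p = 0.0448), where 1.36% of all probe sets were. In the samples numbered 2 to 4 alone, where 3.05% of all probe sets passed, Cd207 did not pass (1.02, limma adjusted p = 0.101). Cd83, an activation marker of dendritic cells, did (1.97, limma adjusted p = 0.0104, or 0.354 in the unblocked fit of all samples). Cd83 was named after its values were seen. In the 4 h sample the monocyte and macrophage sum was 6.52 against 7.53 in the non-wounded sample numbered 1, and the keratinocyte sum 12.07 against 12.39. No marker was listed at 0, and the part of any cell type in the values of Has1, Has2, Has3 and Cd44 was not tested.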

How the data were processed

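Biotin-labelled cRNA from Trizol-extracted RNA was hybridised to Affymetrix arrays, per the labels' protocols. The deposited table held log2 values that the authors made with RMA, per the submitters' processing notes; the log2 scale was read from the values (1.76 to 13.30). The sources used here do not give the array name, filters or software version. Without detection calls, precision rests on how many arrays there are. Probe sets were named through RefSeq accessions (GRCm38.p6, names only): 963 of 1246 matched 1 gene. For a gene with several probe sets, the one with the highest mean was used.

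Groups and replicate numbers came from the titles. Whether replicates share an animal is not stated: p-values then measure only the spread among these arrays, possibly technical. Limma 3.58.1 (R 4.3.3) was fitted on all 12 samples and 1246 probe sets with group means, two-sided, with Benjamini-Hochberg adjustment and a threshold of 0.05; the design was checked on simulated data. Deviations of same-numbered non-wounded and 2 h samples correlated at 0.796, 0.449, 0.651 and 0.297 for numbers 1 to 4 (limit 0.1), so the replicate number, from the titles, served as a block; without number 1 the correlations were -0.150, 0.0727 and -0.319. The alternatives are those under the dependence on processing. Named genes were the 4 members, up to 3 genes with the smallest p and every called gene per pathway list, the 4 most similar genes per member and up to 2 brightest genes per marker list. One gene that this rule names is not reported here. Members and lists were chosen with earlier results of these data known. Figures used matplotlib 3.10.9 (Python 3.11.15).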

Additional observations from a re-analysis of the deposited data

How the results depend on the processing

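At 2 h against non-wounded Has1, Has2, Has3 and Cd44 were higher under each setting run, and none of the 4 passed except with array weights, where 2 did: Has1 (0.40, adjusted p = 0.0493) and Has2 (0.96, 0.0122). With 1 sample left out the 2 h values were 0.16 to 0.59 for Has1, 0.50 to 0.83 for Has2, 0.86 to 1.68 for Has3 and 0.22 to 1.76 for Cd44. The Cd44 value was 0.22 without non-wounded replicate 1 and 1.76 without 2 h replicate 1. At 30 min the Cd44 estimate was 0.55 with the replicate block, 0.49 with a term for the samples numbered 1, 0.12 in the samples numbered 2 to 4, 0.41 after quantile normalization, 0.11 after scaling to one median and SD, and 0.95 and 0.74 with these and the block; with 1 sample left out it ran from -1.39 to 0.92, above 0 without non-wounded replicate 2 or 3 or 30 min replicate 1. Has2 at 30 min was -0.10 after quantile normalization, -0.20 after scaling, -0.0047 after scaling with the block and -0.036 to 0.26 with 1 sample left out. Has1 at 2 h against 30 min was 0.060 with the replicate block, 0.025 with the term, 0.046 in the samples numbered 2 to 4 and -0.54 to 0.19 with 1 left out. The cause of these turns was not tested.

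Against the non-wounded sample numbered 1 instead of the mean of 4, the 0 h differences were -0.52 (Has1), 0.0028 (Has2) and 0.52 (Cd44), from 0.28, 0.46 and -1.87, and the 4 h differences -0.29 (Has1), 1.41 (Has2) and 1.96 (Cd44), from 0.51, 1.87 and -0.44. Has3 at 0 h was -0.17 after quantile normalization and -0.20 after scaling, from 0.05, and at 4 h 1.12 after median centring, from 1.34. Cd44 at 4 h turned to 0.98 after quantile normalization and 0.57 after scaling, from -0.44.

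All probe sets past the threshold at 2 h numbered 3, and 17 with the block, 20 with the term, 38 in the samples numbered 2 to 4, 7 after quantile normalization, 0 after median centring (70 at an unadjusted p under 0.05), 8 with an intensity trend, 130 with array weights, and 13 and 10 with the block after quantile normalization or scaling; 0 to 11 with 1 sample left out. At 30 min they numbered 0, and 74 without 30 min replicate 2. For 2 h against 30 min they numbered 0, and 1 or 2 with the term, in the samples numbered 2 to 4, and after quantile normalization or scaling, alone or with the block; 3 without 30 min replicate 2 and 9 without 2 h replicate 1.

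Hbegf did not pass after median centring (3.09, adjusted p = 0.124), nor without any 1 of the non-wounded samples or of 2 h replicates 2 to 4 (2.85 to 3.35). Uap1 and Areg kept their blocked calls after quantile normalization and after scaling (adjusted p = 0.0340 to 0.0434). Near 0, Hyal1 was -0.087 in the samples numbered 2 to 4 and -0.13 with array weights, Hyal2 0.11 with array weights, Gfpt2 -0.0044 after quantile normalization and -0.020 after scaling, with or without the block, and Vcan -0.050 after scaling, also with the block. With 1 sample left out Hyal1 ran from -0.10 to 0.47, Gusb from -1.06 to 0.16 and Bcan from -0.11 to 0.47. The block changed no call among the 4 members. Settings that put the block together with a normalization were added after seeing the data.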
